A study of Mus musculus with 4 samples.

Results

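The genes described here encode the plasma lipases, their inhibitor and anchor, the enzymes that remodel lipoproteins in plasma, and the proteins that load lipid onto lipoproteins in the liver. The members are Lpl, Lipc, Lipg, Angptl4, Gpihbp1, Lcat, Pltp, Mttp and Tm6sf2, taken by symbol from the deposited table of FPKM values (fragments scaled for the length of the transcript and the size of the library). Of the 9 symbols, 8 have a row of their own among 22849 symbols. Lcat shares a row with its neighbour Slc12a4, so its value cannot be divided between them and is given separately.

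Liver RNA came from male mice of the C57BL/6 strain after 12 weeks on a diet with 60% fat. The vehicle group ate this diet alone, and the UAB126 group ate it with 1.2 g of UAB126 added per kg. The compound is known here only by this code. Each group had 2 libraries, called vehicle 1 and 2 and UAB126 1 and 2 as in the titles. No lean or chow-fed group is among these samples, so both groups share the high fat diet. The labels do not say whether each library is a separate animal, and p-values speak only for the spread among these 4 samples, which may be technical.

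Triglyceride leaves the liver in very low density lipoprotein (VLDL), which is built when microsomal triglyceride transfer protein (Mttp) loads lipid onto apolipoprotein B, a step in which Tm6sf2 also takes part. In the capillaries, lipoprotein lipase (Lpl), held on the endothelium by Gpihbp1 and inhibited by Angptl4, breaks down that triglyceride. Hepatic lipase (Lipc) and endothelial lipase (Lipg) are its relatives that act on remnants and on high density lipoprotein (HDL), while Lcat and Pltp esterify cholesterol and move phospholipid between plasma particles. In the adult liver Lpl is normally low, and the hepatocyte makes Lipc, Lcat and Mttp.

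The 3 lipases are relatives, so their transcripts were compared before their levels were read. The longest run of identical bases was 17 bases between Lpl and Lipc, 14 bases between Lpl and Lipg and 13 bases between Lipc and Lipg, in the longest coding transcripts of the GENCODE M21 annotation. All of these are shorter than the reads of 75 bases. The run that Lpl and Lipc share is shown in capitals, with its flanks, to show how closely the relatives match (bases 836 to 882 of the Lpl transcript and 858 to 904 of the Lipc transcript).
Lpl: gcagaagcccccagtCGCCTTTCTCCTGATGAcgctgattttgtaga
Lipc: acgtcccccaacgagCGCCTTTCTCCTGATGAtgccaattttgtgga

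Depth and composition differed between the libraries. Low values fall on steps worth 1 fragment, and these gave relative depths of 0.691 and 0.404 in vehicle 1 and 2 and 0.703 in UAB126 2, taking UAB126 1 as 1; the absolute depth is unknown. Pairs of libraries had Pearson correlations across genes of 0.914 to 0.959. The hepatocyte marker Ttr was at 19625 FPKM or more in every library, whereas Alb was listed at 0 in all but vehicle 2, a doubtful entry. Hepatocyte markers other than Alb summed to 53046 and 70608 FPKM in vehicle livers, against 34515 and 42359 FPKM in UAB126 livers. Ttr made up most of each sum, at 34335 and 44092 against 19625 and 25328 FPKM. Both UAB126 libraries were lower in 4 of the 7 hepatocyte markers with a row of their own and higher in 0. Among all tested genes 26.9% were lower and 22.7% higher. The groups overlapped in Alb, Cps1 and the transferrin gene Trf, which was at 7126 and 8111 against 7578 and 7319 FPKM. Markers of cholangiocytes summed to 54.5 to 70.9 FPKM, those of stellate cells to 144.1 to 190.7 FPKM, those of lymphocytes to 4.27 FPKM or less and those of pancreatic acinar cells to 3.71 FPKM or less.

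None of the 8 members passed the threshold between groups, which was a Benjamini-Hochberg adjusted p under 0.05 in a limma fit over the 10786 symbols whose mean was 1 FPKM or more. In that fit 15 genes passed, 0.139% of those tested (0.0464% higher and 0.0927% lower with UAB126). All 8 members passed the filter on low values and were at 4.56 FPKM or more in every library. An unadjusted limma p under 0.05 was found for 2 of the 8, Lipg and Gpihbp1, against 13.4% of all genes. Both UAB126 libraries lay above both vehicle libraries in 4 members (Lipg, Angptl4, Gpihbp1 and Tm6sf2), which holds for 22.7% of all genes. They lay below in 3 (Lpl, Lipc and Pltp), which holds for 26.9%, and the groups overlapped in Mttp. Over all genes the groups were apart in 49.6%. The median log2 difference over the 8 was 0.31, with a range from -1.53 to 1.40, and that over all tested genes was -0.03. Differences are UAB126 minus vehicle on the log2(FPKM + 1) scale, ± is limma's moderated standard error, and n = 2 per group wherever all libraries are used. A fit that leaves out 1 library has n = 1 in that group. Its spread then comes from the other group and from limma's moderation over genes, and the lone library is assumed to vary like the other group.

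**Figure D1:**
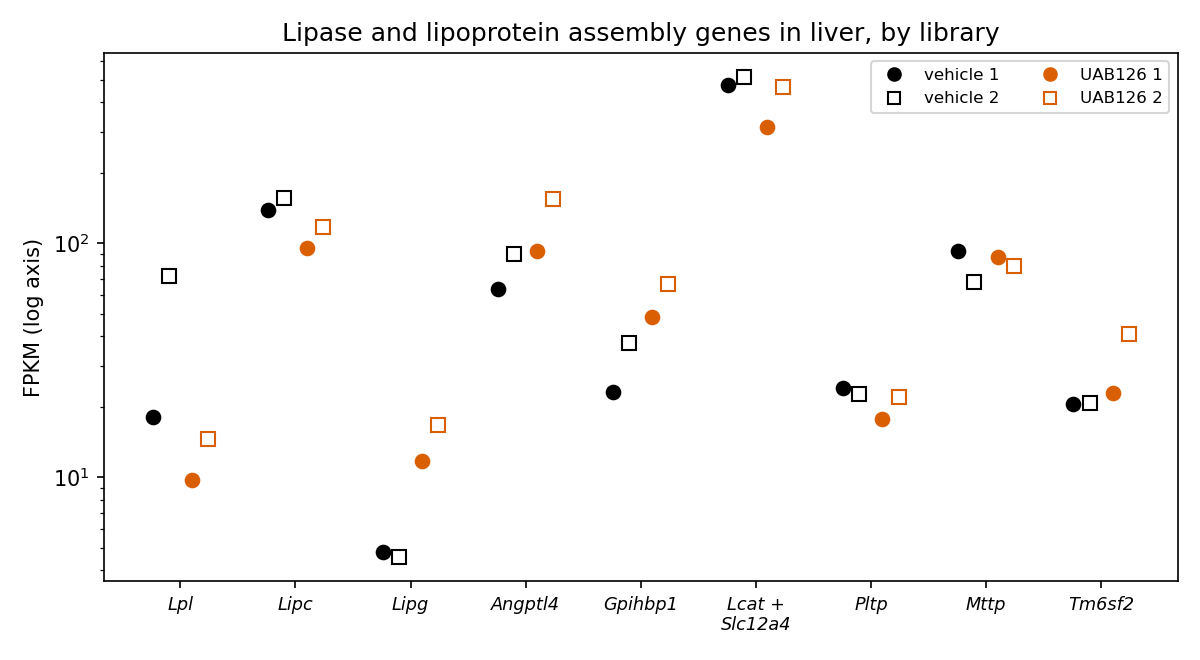
FPKM on a log axis of each gene per library, with vehicle in black and UAB126 in orange, replicate 1 as filled circles and replicate 2 as open squares. Lipg lies at 11.7 and 16.7 FPKM with UAB126, above 4.79 and 4.56 FPKM in vehicle, and vehicle 2 stands apart from the other libraries in Lpl at 72.2 FPKM.

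Lipg encodes endothelial lipase, a phospholipase of HDL (chromosome 18, 74939322 to 74961263 of mm10). Vehicle 1 and 2 had 4.79 and 4.56 FPKM of Lipg, and UAB126 1 and 2 had 11.7 and 16.7 FPKM. The groups did not overlap, and the ratio of their means was 3.04. The log2 difference was 1.40 ± 0.22 with a 95% interval from 0.85 to 1.96, the 86th smallest p of 10786 (limma adjusted p = 0.137). Without vehicle 1 the log2 difference was 1.43 and the adjusted limma p 0.0472, with vehicle 2 as the lone control and the spread taken from the UAB126 pair, in a fit where 442 genes (4.1% of those tested) passed. Without vehicle 2 the adjusted limma p was 0.147.

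Lipc encodes hepatic lipase, which the hepatocyte secretes and which binds to the sinusoid wall (chromosome 9, 70798128 to 70952226). It was the most abundant lipase in each library, at 138.5 and 156.3 FPKM in vehicle livers, against 95.5 and 117.8 FPKM in UAB126 livers. The groups did not overlap, and UAB126 2 lay closest to vehicle, with a log2 difference of -0.47 ± 0.23 and a 95% interval from -1.05 to 0.11 (limma adjusted p = 0.425). The difference was -0.16 with quantile normalization and -0.32 with the trend over transcript length removed.

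The Lipc start site in the RefSeq promoter table, at 70934808, is also the end of the deposited Lipc locus. The 250 bases before it, chr9:70934809-70935058 on the minus strand of GRCm38.p6, are shown because Lipc makes up most of the lipase transcript in this liver. Capitals mark AGGTCA on either strand (TGACCT on the other), the core hexamer that nuclear receptors such as Hnf4a and the Ppar proteins are known to bind.
Lipc upstream: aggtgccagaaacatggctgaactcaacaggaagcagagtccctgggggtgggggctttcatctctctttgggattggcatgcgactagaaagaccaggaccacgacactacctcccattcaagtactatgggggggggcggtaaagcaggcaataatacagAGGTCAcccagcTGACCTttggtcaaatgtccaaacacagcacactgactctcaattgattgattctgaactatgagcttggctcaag
The window holds 2 matches. Of 32851 windows of the same length in the RefSeq table, 14.0% hold at least 1 and 1.34% hold at least 2. A match is a description of these letters and no evidence of binding.

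Lpl encodes lipoprotein lipase, the main enzyme of triglyceride clearance in muscle and fat (chromosome 8, 68880491 to 68907448). It was at 18.2 and 72.2 FPKM in vehicle livers, against 9.74 and 14.6 FPKM in UAB126 livers. Vehicle 2 was 3.98 times vehicle 1, a wider gap than the gap from vehicle 1 to either UAB126 library. The log2 difference was -1.53 ± 0.64 with a 95% interval from -3.14 to 0.07 (limma adjusted p = 0.386). It was -0.57 without vehicle 2 (limma adjusted p = 0.649) and -2.50 without vehicle 1 (limma adjusted p = 0.00968), so its size rests on which vehicle library is used. Both of these fits have 1 vehicle library, and the gap between the vehicle libraries enters neither p.

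Markers of other cells were read beside Lpl. The summed level of the 5 listed genes of skeletal muscle, a tissue rich in Lpl, was 15.1 and 78.6 FPKM in vehicle livers, against 2.34 and 4.63 FPKM in UAB126 livers, which is the order of Lpl. All 5 had their highest value in vehicle 2, as did 7 of 7 hepatocyte markers and 36.8% of all tested genes. The 7 include the doubtful Alb entry. The hepatocyte sums given above, which leave Alb out, run in the same order. Ckm, the muscle creatine kinase, was at 11.1 and 56.6 FPKM in vehicle livers, against 0.342 and 2.09 FPKM in UAB126 livers. Acta1, skeletal muscle actin, was at 2.195 and 17.4 against 0.152 and 0.923 FPKM. Mylpf, also on the muscle list, was at 1.70 and 4.01 against 1.84 and 1.49 FPKM, with overlapping groups, and Tnnt3 was at 0.517 FPKM or less. The ratio of Lpl to Ckm was 1.63 and 1.28 in vehicle and 28.5 and 6.95 with UAB126. The fast myosin gene Myh4 was at or near 0 throughout, at 0.106 FPKM or less. The 5 adipocyte markers with a row of their own summed to 219.9 and 59.6 FPKM in vehicle livers, against 7.27 and 33.4 FPKM in UAB126 livers. Most of it came from Cfd (adipsin) in all libraries but UAB126 1. Adipoq, which encodes the fat cell hormone adiponectin, was at 2.80 and 2.59 against 2.09 and 4.47 FPKM. The adipocyte marker Fabp4 is left out of the sum because it shares a row with Pmp2. That joint row was at 46.0 and 114.2 against 40.6 and 68.2 FPKM, highest in vehicle 2 as Lpl was. Kupffer cell and macrophage markers, whose cells also make Lpl, summed to 57.5 and 162.0 against 149.9 and 158.3 FPKM. Of the 9 tested, both UAB126 libraries were higher in 5 and lower in 0, with a median log2 difference of 0.62. Among all tested genes 22.7% were higher and 26.9% lower. The part of these cells in the Lpl values was not tested. In bulk liver, fewer cells of a type and less RNA per cell cannot be told apart.

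**Figure D2:**
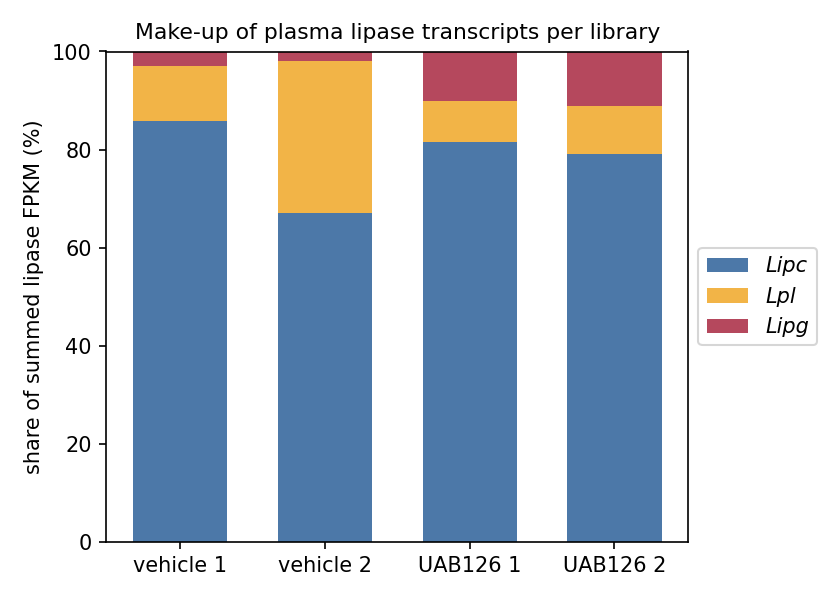
Share in percent of the summed FPKM of Lipc, Lpl and Lipg that each gene takes in the 4 libraries (stacked bars, from 0 to 100%). Lipg takes 10.04% and 11.2% with UAB126 against 2.97% and 1.96% in vehicle, and Lpl takes 31.0% in vehicle 2 against 8.33% to 11.2% in the other libraries.

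FPKM is scaled by length, so the 3 lipases were set side by side within a library, but a trend over transcript length remained. Genes with transcripts about as long as that of Lipc had a median log2 difference of -0.14. For genes about as long as Lpl and Lipg it was 0.03. The part of this trend in the shares was not tested. Lipc took 85.8% and 67.1% of their summed FPKM in vehicle and 81.6% and 79.0% with UAB126. Lipg took 2.97% and 1.96% in vehicle and 10.04% and 11.2% with UAB126, and Lpl 11.2% and 31.0% against 8.33% and 9.77%. The ratio of Lipc to Lipg was 28.9 and 34.3 in vehicle and 8.13 and 7.05 with UAB126. These ratios are descriptions of 4 libraries and carry no test.

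Angptl4 encodes a secreted inhibitor that inactivates Lpl and is known as a target of Ppar receptors and glucocorticoids (chromosome 17, 33773750 to 33781830). It was at 63.8 and 90.0 FPKM in vehicle livers, against 92.7 and 154.8 FPKM in UAB126 livers. The groups were only just apart, with UAB126 1 close to vehicle 2, and the log2 difference of 0.65 ± 0.33 had a 95% interval from -0.19 to 1.498 (limma adjusted p = 0.431). It moved from 0.29 without UAB126 2 to 1.02 without UAB126 1. The difference was 0.94 with quantile normalization and 0.65 with the trend over transcript length removed.

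Gpihbp1 encodes the endothelial protein that carries Lpl across the capillary wall and holds it there (chromosome 15, 75596628 to 75599481). It was at 23.1 and 37.5 FPKM in vehicle livers, against 48.4 and 67.1 FPKM in UAB126 livers. All 4 values were spread out, the groups did not overlap and the ratio of means was 1.91. The log2 difference was 0.93 ± 0.31 with a 95% interval from 0.15 to 1.71 (limma adjusted p = 0.322). It ran from 0.59 without vehicle 1 to 1.27 without vehicle 2. The difference was 1.11 with quantile normalization and 1.14 with the trend over transcript length removed.

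Endothelial markers were read beside Gpihbp1 and Lipg. The 7 sinusoidal markers with a row of their own summed to 89.3 and 143.7 FPKM in vehicle livers, against 141.2 and 161.9 FPKM in UAB126 livers. Both UAB126 libraries were above both vehicle libraries in 3 of the 7 (Stab1, Stab2 and Fcgr2b) and none was lower, with a median log2 difference of 0.35. Among all tested genes 22.7% were higher, 26.9% were lower and 13.4% had an unadjusted limma p under 0.05. Stab1, a scavenger receptor of the sinusoid, was at 7.41 and 10.1 against 14.0 and 14.8 FPKM. The 6 markers of vascular endothelium summed to 15.1 and 36.9 against 26.0 and 22.2 FPKM, with 2 higher, 1 lower and a median log2 difference of -0.05. No marker on either list was at 0 in all libraries, and none passed the threshold with limma, while 2 sinusoidal markers (Stab1 and Fcgr2b) and 1 vascular marker (Ptprb) had an unadjusted limma p under 0.05. The part of endothelial cells in the Gpihbp1 and Lipg values was not tested.

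**Figure D3:**
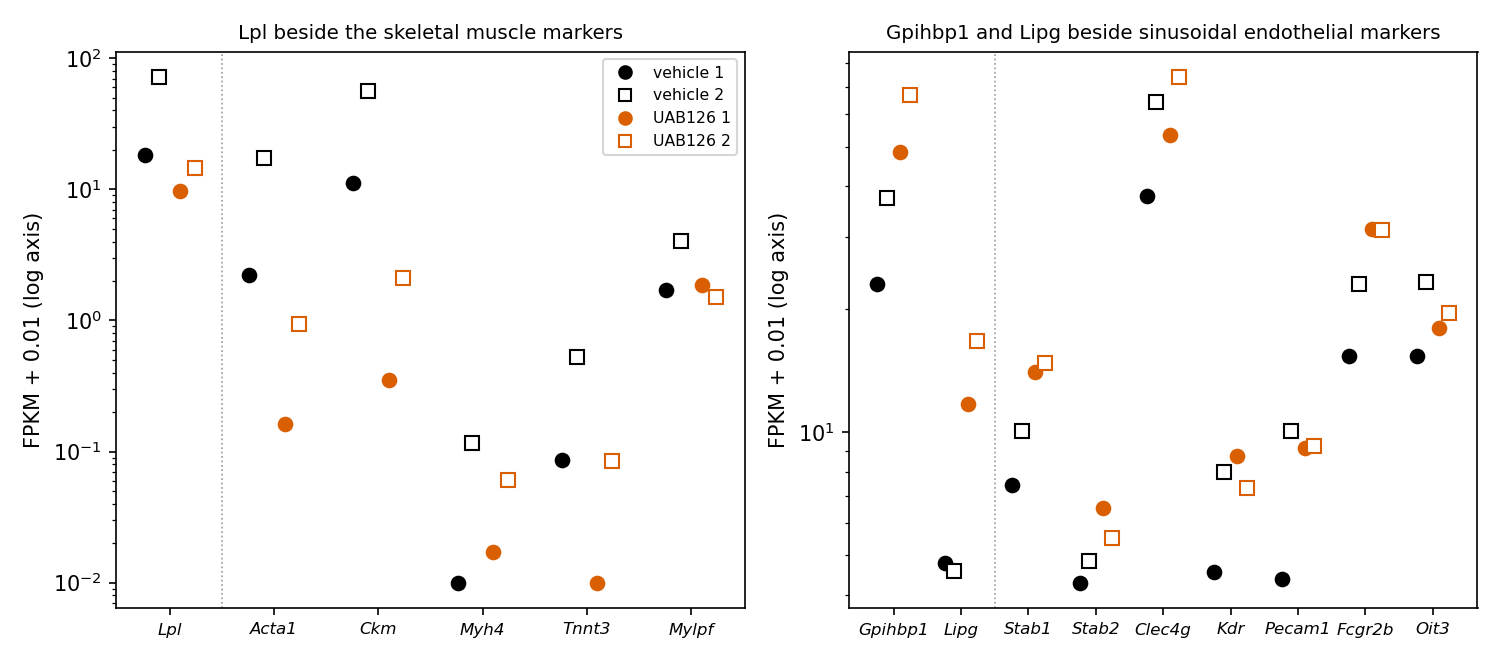
FPKM + 0.01 on log axes in the 4 libraries (symbols as in the plot of the members' FPKM) for Lpl and the 5 skeletal muscle markers (left) and for Gpihbp1, Lipg and the 7 sinusoidal endothelial markers (right). Lpl and Ckm are both highest in vehicle 2, at 72.2 and 56.6 FPKM. Gpihbp1 and Stab1 are both lowest in vehicle 1, at 23.1 and 7.41 FPKM, while Lipg is lowest in vehicle 2, at 4.56 FPKM.

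Pltp encodes the phospholipid transfer protein of plasma (chromosome 2, 164839518 to 164857711). It was at 24.1 and 22.7 FPKM in vehicle livers, against 17.7 and 22.1 FPKM in UAB126 livers. UAB126 2 lay close under the vehicle libraries, and the log2 difference was -0.23 ± 0.20 with a 95% interval from -0.73 to 0.27 (limma adjusted p = 0.595). With the trend over transcript length removed the difference was -0.13. Pltp overlaps the cathepsin A gene Ctsa by 1515 bases on the other strand. No source used here states the strand setting of the counting, and reads in that overlap cannot be told apart. Ctsa was at 59.1 and 62.1 against 62.9 and 68.0 FPKM.

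Lcat encodes the enzyme that esterifies cholesterol on HDL (chromosome 8, 105939551 to 105943382). The joint row of Lcat and Slc12a4, a potassium chloride cotransporter gene, was at 475.2 and 513.7 FPKM in vehicle livers, against 314.4 and 464.1 FPKM in UAB126 livers. The joint row had a log2 difference of -0.37 ± 0.29 (limma adjusted p = 0.565), which turned to 0.03 with quantile normalization.

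Mttp encodes the large subunit of the transfer protein that loads lipid onto apolipoprotein B (chromosome 3, 138089854 to 138144968). It was at 92.5 and 68.1 FPKM in vehicle livers, against 87.7 and 80.2 FPKM in UAB126 livers. Both UAB126 values lay between the vehicle values, and the log2 difference was 0.08 ± 0.24 with a 95% interval from -0.53 to 0.68 (limma adjusted p = 0.898). That interval leaves room for a change of either sign, and the sign turned without vehicle 2 (log2 difference -0.14). Mttp overlaps Trmt10a on the other strand, which was at 1.45 FPKM or less in every library.

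Its substrate and its partner subunit were read beside it. Apob, for the structural protein of VLDL, was at 963.4 and 738.3 FPKM in vehicle livers, against 905.1 and 780.7 FPKM in UAB126 livers, and the groups overlapped. The ratio of Mttp to Apob was 0.0960 and 0.0923 in vehicle and 0.0969 and 0.103 with UAB126. P4hb, protein disulfide isomerase and the small subunit of the transfer complex, was at 803.7 and 680.9 against 579.6 and 570.1 FPKM. Its log2 difference of -0.36 ± 0.25 (limma adjusted p = 0.522) turned to 0.07 with quantile normalization.

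Tm6sf2 encodes a membrane protein of the endoplasmic reticulum needed for full lipid loading of VLDL (chromosome 8, 70072924 to 70080066). It was at 20.6 and 20.7 FPKM in vehicle livers, against 22.8 and 41.1 FPKM in UAB126 livers. UAB126 2 stood apart from the other libraries, and UAB126 1 lay close to vehicle. The log2 difference was 0.55 ± 0.31 with a 95% interval from -0.22 to 1.32 (limma adjusted p = 0.456), and it was 0.14 without UAB126 2 and 0.96 without UAB126 1. The difference was 0.64 with quantile normalization and 0.82 with the trend over transcript length removed.

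**Figure D4:**
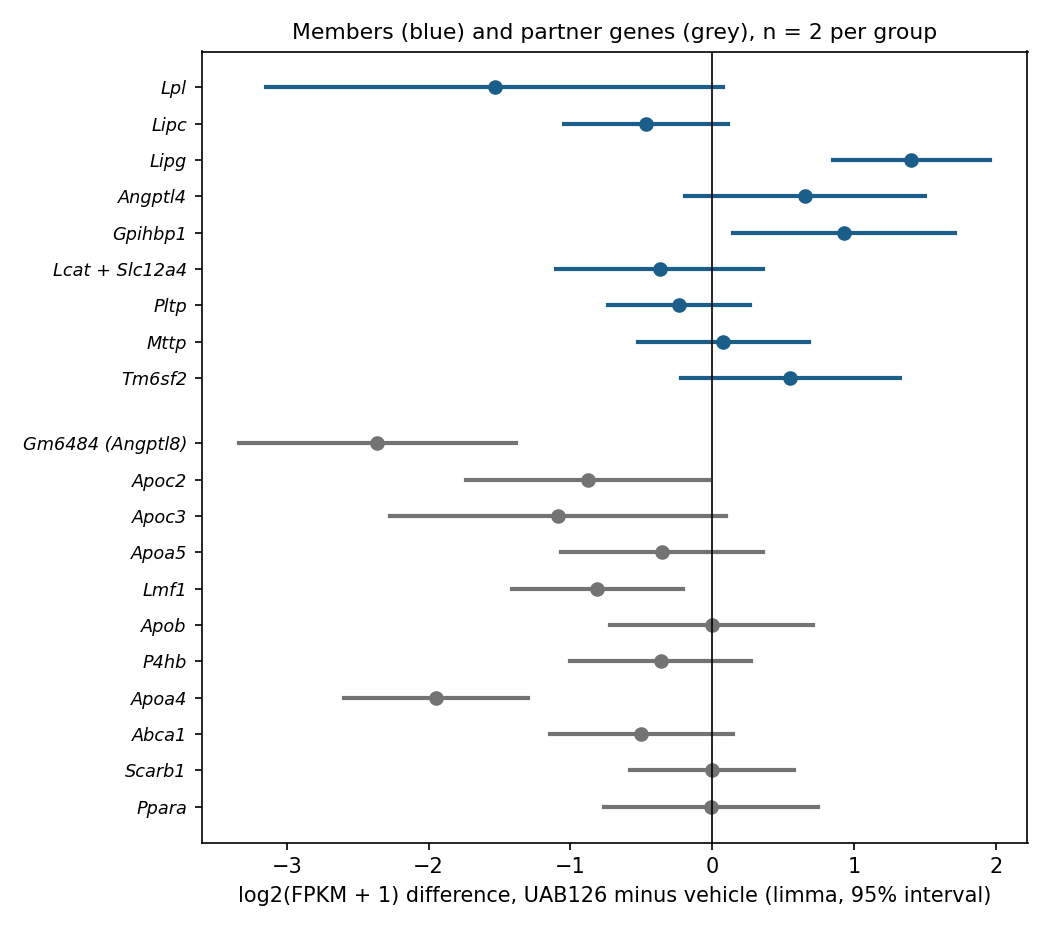
Log2(FPKM + 1) difference, UAB126 minus vehicle, with limma's 95% interval, for the members (blue) and for partner genes of the pathway (grey, with Apoa4 added by its small p). The intervals of Lipg (0.85 to 1.96) and Gpihbp1 (0.15 to 1.71) lie above 0, those of Gm6484, the older symbol of Angptl8 (-3.34 to -1.39), Apoa4 (-2.59 to -1.30), Lmf1 (-1.41 to -0.21) and Apoc2 (-1.73 to -0.02) lie below 0, and no gene plotted passed the adjusted threshold.

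Other genes of lipase control were read from a list of 12 symbols, of which 11 had a row and were tested. The symbol without a row was Angptl8, the same gene as Gm6484, which was tested. None passed in either direction with limma, and 4 had an unadjusted limma p under 0.05 (Gm6484, Lmf1, Furin and Apoc2). Both UAB126 libraries were higher in 3 and lower in 6, and the median log2 difference was -0.36, which turned to 0.11 with quantile normalization. The shares of all tested genes were 22.7% higher, 26.9% lower and 13.4% at an unadjusted limma p under 0.05. The gene with the smallest p was Gm6484, whose product Angptl8 takes part in the inhibition of Lpl and is known to follow feeding and insulin. It was at 198.2 and 115.9 FPKM in vehicle livers, against 38.0 and 21.6 FPKM in UAB126 livers, a ratio of vehicle to UAB126 means of 5.27 (log2 difference -2.36 ± 0.39, limma adjusted p = 0.148). The adjusted limma p of Gm6484 was 0.0489 without vehicle 1, in the fit with 1 vehicle library in which 442 genes passed, and 0.0597 without vehicle 2.

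Angptl4 and Gm6484 thus lay on opposite sides, with Angptl4 at higher values and Gm6484 at lower values with UAB126, and neither passed. Lmf1, the maturation factor that Lpl, Lipc and Lipg need to fold, was at 58.3 and 72.4 against 32.0 and 41.9 FPKM (log2 difference -0.81 ± 0.24, limma adjusted p = 0.294). Furin, a protease that cleaves lipases and angiopoietin-like proteins, was at 68.6 and 48.3 against 92.8 and 95.2 FPKM (log2 difference 0.70 ± 0.25, limma adjusted p = 0.337).

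The apolipoproteins that act on Lpl had lower deposited values with UAB126, by an amount that depended on the scaling. For Apoa5 the sign depended on it too. Apoc2, its required activator, was at 1101 and 1502 FPKM in vehicle livers, against 569.2 and 860.1 FPKM in UAB126 livers (log2 difference -0.88 ± 0.34, limma adjusted p = 0.368). Its difference was -0.43 with quantile normalization and -0.33 with the trend over transcript length removed. Apoc3, an inhibitor of clearance, was at 7806 and 14210 against 3893 and 6334 FPKM (log2 difference -1.08 ± 0.47, limma adjusted p = 0.392), and the difference was -0.40 and -0.53 under the same changes. Apoa5, an enhancer of lipolysis, was at 645.3 and 609.2 against 413.2 and 580.2 FPKM (log2 difference -0.36 ± 0.28, limma adjusted p = 0.568), which turned to 0.13 with quantile normalization. The activator and the inhibitor thus lay on the same side, and none of the 3 passed.

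Of 14 listed genes of VLDL assembly and export, 13 were tested and none passed with limma, with 1 (Sort1) at an unadjusted limma p under 0.05. Both UAB126 libraries were higher in 2 and lower in 2, with a median log2 difference of 0.14. Among all tested genes 22.7% were higher, 26.9% were lower and 13.4% had an unadjusted limma p under 0.05. Sort1, for sortilin, a sorting receptor of apolipoprotein B, was at 3.13 and 3.59 FPKM in vehicle livers, against 7.40 and 5.97 FPKM in UAB126 livers (log2 difference 0.81 ± 0.19, limma adjusted p = 0.254). Cideb, a lipid droplet protein that takes part in VLDL lipidation, was at 415.8 and 480.0 against 258.6 and 334.9 FPKM. Sec23a, a coat protein of export vesicles, was at 22.3 and 13.8 against 25.0 and 23.96 FPKM.

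Of 11 listed genes of HDL assembly and remodelling, 10 were tested and none passed with limma, with 1 (Apoa4) at an unadjusted limma p under 0.05. Both UAB126 libraries were higher in 2 and lower in 5. The shares of all tested genes were 22.7% higher, 26.9% lower and 13.4% at an unadjusted limma p under 0.05. The listed HDL genes had a median log2 difference of -0.25, which turned to 0.17 with quantile normalization. Apoa4, an apolipoprotein of HDL and chylomicrons, was at 1021 and 831.4 FPKM in vehicle livers, against 254.0 and 223.5 FPKM in UAB126 livers, a ratio of vehicle to UAB126 means of 3.88 (log2 difference -1.95 ± 0.26, limma adjusted p = 0.105). Apoa1, the main HDL protein, was at 22351 and 35885 against 9453 and 17724 FPKM. Abca1, which exports cholesterol to nascent HDL, was at 15.5 and 15.2 against 13.4 and 8.29 FPKM. Scarb1, the HDL receptor, was at 106.8 and 82.1 against 92.5 and 94.5 FPKM, and its groups overlapped.

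Among 7 tested genes of lipoprotein receptors and their regulators, none passed with limma, and 2 (Mylip and Lrp1) had an unadjusted limma p under 0.05. In both UAB126 libraries 1 was higher and 1 lower, and the median log2 difference was 0.09. For this list and the next, the shares of all tested genes were 22.7% higher, 26.9% lower and 13.4% at an unadjusted limma p under 0.05. The receptor list gene with higher values was Mylip, a ligase that marks the LDL receptor for breakdown, at 3.80 and 3.53 against 6.39 and 6.65 FPKM. The gene with lower values was Lrp1, a receptor of remnants, at 295.0 and 356.3 against 190.8 and 222.2 FPKM. Of 10 transcription factors known to act on these genes, none passed with limma and 1 (Foxo1) had an unadjusted limma p under 0.05, while 4 were higher and 2 lower, and the median log2 difference was 0.03. Foxo1 was at 10.6 and 10.6 against 16.4 and 20.2 FPKM, Ppard at 2.41 and 1.98 against 3.30 and 3.64 FPKM, and Hnf4a at 123.0 and 121.3 against 160.7 and 176.6 FPKM. Ppara, which controls Angptl4 among other genes, was at 115.6 and 71.6 against 82.2 and 99.8 FPKM, with overlapping groups.

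Likeness was measured as the Euclidean distance between log2 values centred on each gene's mean, over the 4 libraries. The comparison was with 99 tested genes of the pathway and marker lists. This distance is not scaled, so it depends on the size of a change as well as on its pattern. The gene nearest to Mttp was Apob, at a distance of 0.110, and the nearest to Pltp was Creb3l3, at 0.0772. Cideb was nearest to Lipc (0.143) and Ly6c1, a vascular marker, to Lpl (0.281). Gpihbp1 (0.265) and Angptl4 (0.258) were both nearest to Cela2a, a pancreatic acinar marker at only 0.0845 to 2.33 FPKM. The next nearest were the sinusoidal markers Fcgr2b (0.412) and Stab1 (0.423) for Gpihbp1, and the sinusoidal marker Clec4g (0.408) and the Kupffer cell marker Timd4 (0.411) for Angptl4. Tm6sf2 was nearest to Adipoq (0.398). Lipg was farthest from its nearest gene, Foxo1, at 0.692. Both genes were higher in both UAB126 libraries, with log2 differences of 1.40 for Lipg and 0.73 for Foxo1. With 4 libraries these distances are a description only.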

How the data were processed

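Liver RNA of 2 vehicle and 2 UAB126 libraries was selected for polyadenylated RNA and sequenced from both ends, per the labels' protocols. The submitters' processing notes name Trim Galore (0.4.1), STAR (2.5.1b), Cuffdiff and Cufflinks (2.2.1), with mm10 as the genome build. The authors deposited 1 table of FPKM values with a column per library. No source used here gives the annotation or settings. FPKM is no count, so no count test was run.

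Of 27216 rows, 3634 without a symbol were left out, and rows of one name were summed. Values were taken as log2(FPKM + 1), which understates the change of low genes. Symbols averaging 1 FPKM or more entered a limma fit (limma 3.58.1, R 4.3.3; lmFit and eBayes with intensity trend, group only, two-sided). The script was run on simulated data with an equal spread for every gene and set differences larger than those of the members. That run does not measure the power of the fit on these data. An exact permutation of these groups cannot reach 0.05. The moderated test takes 3.35 of its 5.35 degrees of freedom from other genes. Lengths and positions came from GENCODE M21.

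The members and lists were chosen with earlier results of these data known. Named were all members, the direct partners (Apob, P4hb, Apoc2, Apoc3, Apoa5, Angptl8 or Gm6484, Lmf1, Abca1, Scarb1 and Ppara), and in each pathway list every gene past the threshold, or otherwise up to 3 genes with the smallest p whose groups did not overlap. One listed gene is not reported here. Alternatives changed the pseudocount, filter, scaling, length trend, variance model, rows and libraries, and added a replicate block.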

Additional observations from a re-analysis of the deposited data

How the results depend on the processing

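Over 14 alternatives the 8 members kept their direction, except Mttp without vehicle replicate 2 (-0.14, against up to 0.30 without vehicle replicate 1), and the joint Lcat row turned with quantile normalization (0.028). The number of members past the threshold in limma was 0 in each alternative that used all libraries (1 to 5 at an unadjusted p under 0.05) and ran from 0 to 2 when 1 library was left out, the 2 being Lpl and Lipg without vehicle replicate 1. The number of all genes past the threshold, 15 (5 higher and 10 lower), was 27 with a pseudocount of 0.1, 24 with quantile normalization (12 higher and 12 lower), 23 with median centring, 148 with the replicate block and 0 both with no filter and with rows of no symbol kept. It ran from 0 to 442 when 1 library was left out, 442 without vehicle replicate 1, 56 without vehicle replicate 2 and 0 without UAB126 replicate 2. In those fits with 0 genes, 1764, 1413 and 737 genes had an unadjusted limma p under 0.05, in the same order. The cause of these shifts was not tested.

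The replicate numbers carry no stated pairing. Deviations of same-numbered libraries had a correlation of 0.178 across genes, and those of differently numbered libraries -0.178. With 2 libraries per group these values mirror each other by arithmetic, so they neither show nor exclude a pairing. Under the replicate block no member passed, and the lowest adjusted limma p of a member was 0.0639 (Lipg). Of the other named genes, Gm6484 and Apoa4 passed under the block (limma adjusted p = 0.0158 and 0.0227).

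Some partners turned sign: with quantile normalization Apob (0.52), P4hb (0.066), Apoa5 (0.13), Scarb1 (0.27) and Ppara (0.25); with median centring Apob (0.014), Scarb1 (0.017) and Ppara (0.012); and Scarb1 with the length trend removed (0.0079). When 1 library was left out, the difference ran from -0.20 to 0.19 for Apob, from -0.19 to 0.19 for Scarb1 and from -0.35 to 0.34 for Ppara. Vehicle replicate 2 had the lowest relative depth (0.404), and precision per library was not measured.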
